A study of Pimephales promelas with 15 samples.

Results

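Fathead minnow larvae (Pimephales promelas) kept in 100 ng/L 17α-ethinylestradiol (EE2) were compared with larvae kept in solvent, which was 0.01% DMSO. The comparison holds 5 libraries at 100 ng/L and 5 solvent libraries, 10 of the 15 libraries of the series, taken by the column names of the count table. Concentrations are nominal. In each group the eggs entered the test water within 6 hours of fertilization, in petri dishes with static renewal, and stayed in it for 96 hours after hatching. Each library is a pool of whole bodies at 4 days post-hatch, although the sample titles speak of embryos. No DMSO level stands in the labels of the exposed samples, and whether both groups held the same amount of solvent is not stated. The labels also leave out the number and sex of the larvae in a pool and whether the pools of a group came from separate dishes. The p-values therefore cover the spread between these libraries, which may be technical. The other 5 libraries, at 20 ng/L EE2, were used to estimate the spread and are given beside the results where stated.

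EE2 is a synthetic estrogen made for oral contraceptives, and it reaches rivers with treated sewage. Estrogens act through nuclear receptors that bind DNA and switch target genes on or off. In egg-laying fish the best known targets are in the liver, which makes the egg yolk precursor vitellogenin and proteins of the egg envelope in maturing females. Males and juveniles make little of these, and do so when exposed to estrogens, which is why vitellogenin serves as a marker of exposure in this species. The count table names its rows by an ID made of a prefix and a number, and no source used here pairs these IDs with gene names, so which of the IDs below belong to known estrogen targets is not stated. IDs are given by their prefix (scaf140, scaf36 and so on). For the same reason the labelled tissue was not checked against marker genes. In whole bodies, a larger or smaller tissue cannot be told apart from more or less RNA per cell.

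Total counts per library ran from 32674182 to 48433139 at 100 ng/L and from 35585040 to 55722278 in solvent. Depth thus moved with the groups, and its part in the results was not tested beyond the values given below. Of 26150 IDs, 21976 had enough counts to be tested. Solvent replicate 1 stood apart from its group. On the log2 scale of CPM (counts scaled to the library's TMM-normalised total, with 0.5 added), its correlation across tested IDs with the 5 libraries at 100 ng/L ran from 0.959 to 0.977, and with the other 4 solvent libraries from 0.949 to 0.960. The other 4 solvent libraries correlated with each other by 0.967 to 0.984. With the 100 ng/L libraries those 4 correlated by 0.952 to 0.982, a range that contains that of solvent replicate 1. Solvent replicate 1 lay outside the range of the other 4 solvent libraries for 63.6% of IDs, where each of the others lay outside for 29.4% to 40.1%. The main results use all 10 libraries, and the same results without solvent replicate 1 follow them.

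At 100 ng/L EE2 the response was led by a few transcripts that were close to 0 in solvent larvae and abundant in exposed larvae. With all libraries 21 IDs rose, 0.0956% of those tested, and 2 fell, 0.0091% (edgeR quasi-likelihood test, adjusted p below 0.05). All 21 rises had each 100 ng/L library above each solvent library, an order that 0.405% of all tested IDs showed. The 2 falls had each 100 ng/L library below each solvent library, as 0.378% of tested IDs did. The same values made these calls, so the lack of overlap is no independent support. By their fitted fold, 10 of the rises were over 100-fold, 4 were between 10- and 100-fold, and 7 were under 5-fold. Together the 21 rises took 1.304% ± 0.290 of all counts at 100 ng/L and 0.0330% ± 0.00176 in solvent (SD, n = 5 each).

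The most abundant rise was scaf140.3. It had 4304, 3492, 3028, 2604 and 3285 CPM in the 5 libraries at 100 ng/L, and 1.74, 2.06, 0.486, 1.04 and 2.45 CPM in the 5 solvent libraries. No library at 100 ng/L came near the solvent level, and the lowest exposed library was 1064 times the highest solvent library. Its log2 fold change was 11.08 (SE 0.82, 95% confidence interval 9.33 to 12.83, edgeR adjusted p = 2.92e-06). The other 4 scaf140 IDs ran from 984 to 3621 CPM over the 100 ng/L libraries and from 0.252 to 1.75 CPM over the solvent libraries, and rose by between 1924- and 3656-fold. Replicate 4 was the lowest 100 ng/L library for all 5 of them. Of the 26 tested IDs of this prefix 5 rose, where 0.0956% of all tested IDs did. Neighbouring IDs can be copies of a gene or pieces of 1 gene model that share reads, so the separate levels of the 5 are uncertain.

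Among the other prefixes the most abundant rise was scaf62.127. It had 787, 1257, 805, 324 and 654 CPM at 100 ng/L, and 2.76, 3.18, 2.75, 1.64 and 3.27 CPM in solvent. Replicate 4 was again the lowest of the 100 ng/L libraries, still 99.1 times the highest solvent library. The log2 fold change was 8.14 (SE 0.74, 95% confidence interval 6.57 to 9.70, edgeR adjusted p = 2.24e-05).

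A set of 3 scaf36 IDs rose, with little spread between exposed libraries for all but the least abundant of them. The most abundant of them had 102, 101, 82.7, 113 and 106 CPM at 100 ng/L, and 0.208, 0.365, 0.234, 0.360 and 0.249 CPM in solvent (353-fold). The second had between 24.8 and 32.6 CPM at 100 ng/L and between 0 and 0.156 CPM in solvent (328-fold). The third had between 4.52 and 9.34 CPM at 100 ng/L, and at most 0.0765 CPM in solvent, where 3 libraries had no count (186-fold, or 317-fold without solvent replicate 5). The steady level of the first scaf36 ID differs from scaf62.127, whose 100 ng/L libraries spanned from 324 to 1257 CPM.

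For 2 scaf178 IDs, 4 of the 5 solvent libraries had no count. The first had between 362 and 569 counts in each 100 ng/L library, and 11 counts in solvent replicate 4 as its only solvent counts. Over the pooled solvent counts it was 254-fold higher, with a 95% interval of 142 to 508 for counting error only. Without that library it was at least 715-fold higher, the other 4 solvent libraries being set together at a floor of 3 counts. The second had between 27 and 45 counts in each 100 ng/L library and 4 counts in solvent, all in replicate 3. It was 58.1-fold higher over the pooled solvent counts, with an interval of 22.7 to 213, and at least 59.6-fold higher against the same floor without that library. The call of the second was lost without solvent replicate 2, 4 or 5 (edgeR adjusted p up to 0.0617). This second ID entered the test through the 100 ng/L libraries alone, as no other library reached the filter's limit of 0.239 CPM. Its call and its lack of overlap thus rest on the libraries that let it in.

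Intermediate rises were found for single IDs of scaf4, scaf381 and scaf15. The scaf4 ID had 9.09, 19.3, 11.6, 5.86 and 12.2 CPM at 100 ng/L, and 0.234, 0.574, 0.684, 0.0720 and 0.0956 CPM in solvent (35.1-fold, edgeR adjusted p = 0.00199). Its call was lost in limma-voom (adjusted p = 0.137). The scaf381 ID had between 16.7 and 28.8 CPM at 100 ng/L, and between 0.678 and 2.24 CPM in solvent (19.9-fold), where replicate 1 was the highest. The scaf15 ID was the most even of the 21 rises across exposed libraries. It had 7.91, 7.83, 8.34, 7.99 and 8.14 CPM at 100 ng/L, and 0.884, 0.782, 0.378, 0.306 and 0.172 CPM in solvent (16.4-fold).

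The 7 rises under 5-fold were already well expressed in solvent, with between 5.94 and 96.0 CPM over all solvent libraries, and lay between 12.0 and 161 CPM at 100 ng/L. The largest fold was that of a scaf274 ID, with 124, 143, 105, 79.4 and 133 CPM at 100 ng/L, and 29.4, 31.4, 28.1, 24.9 and 45.1 CPM in solvent (3.68-fold, edgeR adjusted p = 7.24e-04). Then came a scaf14 ID (2.84-fold), a scaf3 ID (2.33-fold), a scaf75 ID (2.09-fold), a scaf8 ID (2.04-fold), a scaf10 ID (1.85-fold) and a scaf13 ID (1.58-fold). The weakest calls were those of the scaf75 ID, lost without any 1 of 5 libraries (edgeR adjusted p up to 0.0823), and the scaf13 ID, lost without any 1 of 7 (up to 0.0971). With only the 10 libraries in the fit, 19 IDs rose, and the scaf75 and scaf13 IDs did not pass (edgeR adjusted p = 0.0505 and 0.186). With the replicate block added to that fit, the second scaf178 ID and the scaf13 ID did not pass (edgeR adjusted p = 0.163 and 0.206).

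**Figure D1:**
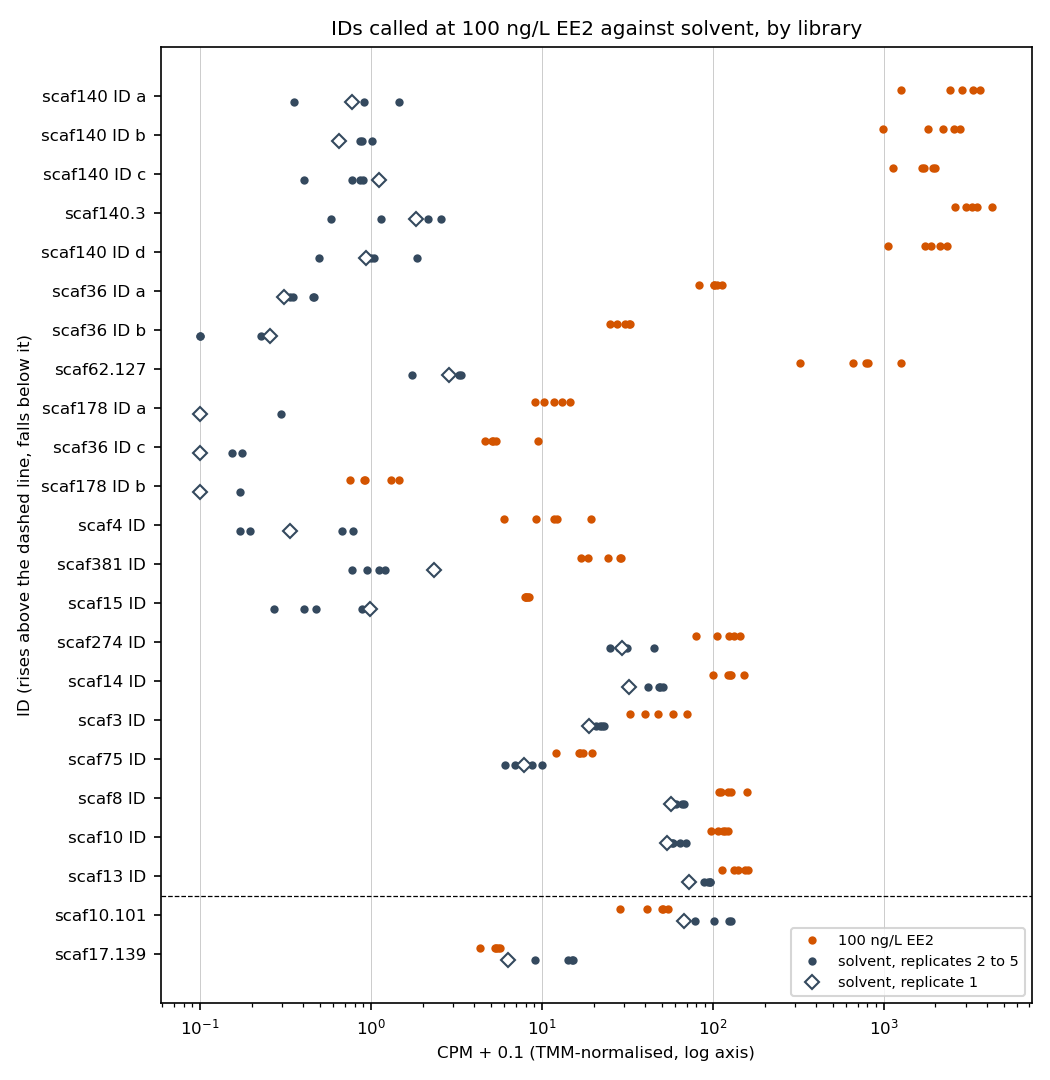
Each row is 1 of the 23 IDs called at 100 ng/L EE2 against solvent, and each point is 1 library. The x axis is TMM-normalised CPM plus 0.1 on a log scale, with 100 ng/L libraries in orange and solvent libraries in dark blue (replicate 1 as an open diamond). For the 21 rises all 5 exposed libraries lie right of all solvent libraries, and for the 2 falls left of them. Among the falls the solvent library nearest to the exposed ones is replicate 1.

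The 2 falls, scaf10.101 and scaf17.139, were by 2.216- and 2.302-fold. Levels of scaf10.101 were 50.5, 50.6, 40.9, 28.4 and 54.7 CPM at 100 ng/L, and 67.7, 78.0, 124, 102 and 128 CPM in solvent, and no exposed library reached the lowest solvent library. The log2 fold change was -1.15 (SE 0.20, 95% confidence interval -1.58 to -0.72, edgeR adjusted p = 0.0358). Levels of scaf17.139 were 5.30, 5.40, 5.21, 5.58 and 4.25 CPM at 100 ng/L, and 6.19, 9.05, 14.03, 14.9 and 15.1 CPM in solvent, a log2 fold change of -1.20 (SE 0.21, 95% confidence interval -1.64 to -0.77, edgeR adjusted p = 0.0290). For both, replicate 1 was the lowest solvent library and lay close to the exposed ones. Blocking on the replicate number ended both calls (edgeR adjusted p = 0.123 and 0.0799), and a different ID fell in that fit. With only the 10 libraries in the fit neither passed (edgeR adjusted p = 0.198 and 0.219, or 0.340 and 0.363 with the block as well). By limma-voom scaf17.139 did not pass (adjusted p = 0.138). Each fall lost its call without any 1 of 8 libraries.

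At 20 ng/L, whose comparison shares the solvent libraries, the called IDs had the following levels. The scaf140.3 ID averaged 1.56 CPM ± 0.789 in solvent, 300 CPM ± 313 at 20 ng/L and 3343 CPM ± 631 at 100 ng/L (SD, n = 5 each). The scaf62.127 ID averaged 2.72 CPM ± 0.650 in solvent, 135 CPM ± 118 at 20 ng/L and 765 CPM ± 336 at 100 ng/L (SD, n = 5 each). Both were less even at 20 ng/L, where replicate 5 was the highest library and replicate 4 the lowest. The most abundant scaf36 ID averaged 0.283 CPM ± 0.0739 in solvent, 102 CPM ± 20.2 at 20 ng/L and 101 CPM ± 11.1 at 100 ng/L (SD, n = 5 each). The scaf15 ID averaged 0.504 CPM ± 0.311 in solvent, 8.19 CPM ± 1.25 at 20 ng/L and 8.04 CPM ± 0.202 at 100 ng/L (SD, n = 5 each). For these last 2 IDs the level at 20 ng/L lay within 1 SD of that at 100 ng/L. Levels of scaf10.101 averaged 99.8 CPM ± 26.8 in solvent, 82.7 CPM ± 13.04 at 20 ng/L and 45.0 CPM ± 10.6 at 100 ng/L (SD, n = 5 each).

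Rises and falls were then set out by abundance. Tested IDs were divided by their mean CPM over the 10 libraries. CPM is not divided by transcript length, so these levels rank IDs by the reads they drew and not by copies per cell. An ID that rose from near 0 stands at a level set by the exposed libraries. The 21 rises were spread over every level. There was 1 among 2764 IDs below 1 CPM, 4 among 7104 IDs at 1 to 10 CPM, 9 among 10736 IDs at 10 to 100 CPM, 4 among 1255 IDs at 100 to 1000 CPM and 3 among 117 IDs at 1000 CPM and above. As a share of IDs tested that is 0.0362%, 0.0563%, 0.0838%, 0.319% and 2.56% from the lowest to the highest level. The 3 at the highest level were all scaf140 IDs. The 1 below 1 CPM was the second scaf178 ID, which entered the test through the 100 ng/L libraries alone. Of the 2 falls, scaf17.139 lay at 1 to 10 CPM and scaf10.101 at 10 to 100 CPM.

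At a looser threshold, the balance of higher and lower IDs shifted with abundance. At an unadjusted edgeR p below 0.05, 547 IDs were higher at 100 ng/L (2.49% of those tested) and 1196 were lower (5.44%). By chance alone a fraction of about 0.05 would pass, both directions together, where 7.93% did. The counts of a single direction or level were not tested against that fraction. Below 1 CPM 23 were higher and 139 lower, and at 1 to 10 CPM 150 were higher and 594 lower. At 10 to 100 CPM 273 were higher and 436 lower. At 100 to 1000 CPM the balance turned, with 64 higher and 27 lower. At 1000 CPM and above 37 of 117 IDs were higher and 0 were lower. Of those 37, 34 missed the adjusted threshold, and their folds were no larger than 1.27. Only 4 of the 37 had each exposed library above each solvent library, and the 3 called scaf140 IDs were among these. Over all levels 0.405% of tested IDs showed that order. From the lowest to the highest level, higher IDs were 0.832%, 2.11%, 2.54%, 5.10% and 31.6% of those tested. Lower IDs were 5.03%, 8.36%, 4.06%, 2.15% and 0%. At the same limit without solvent replicate 1, 39 were higher and 232 lower below 1 CPM, and 477 and 1174 at 1 to 10 CPM. At 10 to 100 CPM 1790 were then higher and 1214 lower, at 100 to 1000 CPM 343 and 151, and at 1000 CPM and above 35 and 10. Over the 5 levels the higher IDs were then 1.31%, 6.71%, 16.7%, 27.3% and 29.9% of those tested. The lower IDs were 7.78%, 16.5%, 11.3%, 12.0% and 8.55%. Without that library the balance thus turned at 10 to 100 CPM, and the highest level had lower IDs as well.

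The whole distribution of fold changes moved in the same way with abundance. The median log2 fold change was -0.15 below 1 CPM, -0.06 at 1 to 10 CPM, 0.02 at 10 to 100 CPM, 0.05 at 100 to 1000 CPM and 0.14 at 1000 CPM and above. The share of IDs with a positive fold change was 38.3%, 41.3%, 55.1%, 61.3% and 72.6% over these levels, each step higher than the one before. With library size only in place of TMM the median at 10 to 100 CPM was -0.018, and the other 4 kept their sign. The median SE of a log2 fold change was 0.49 below 1 CPM, 0.23 at 1 to 10 CPM and between 0.12 and 0.14 at the higher levels. IDs with a fitted fold of 2 or more were mostly falls and mostly rare. There were 412 lower and 109 higher over all levels, of which 247 and 54 lay below 1 CPM.

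**Figure D2:**
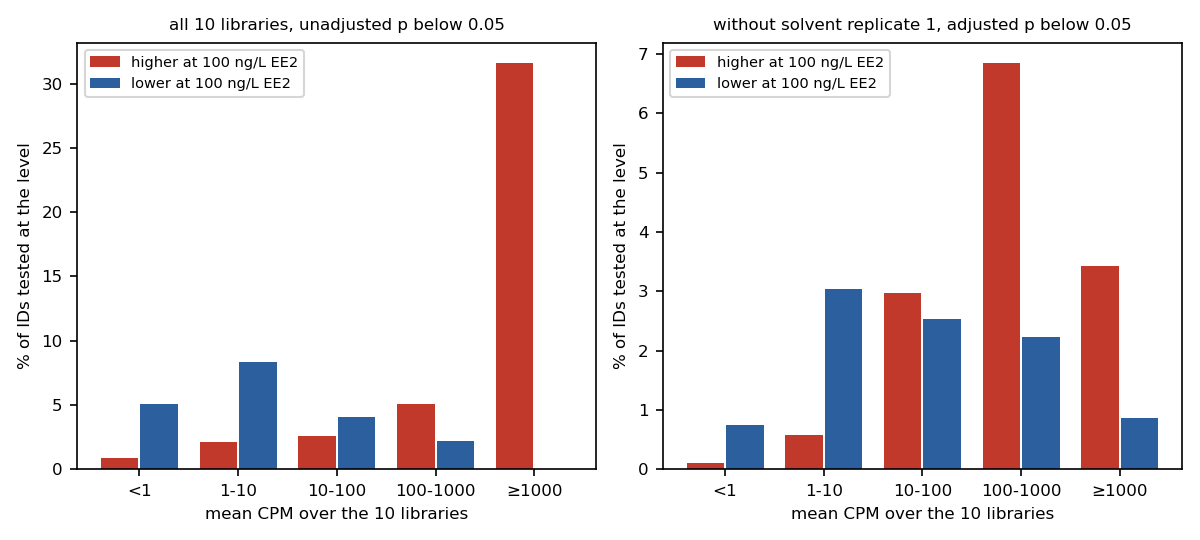
Bars give the percentage of tested IDs at each level of mean CPM that were higher (red) or lower (blue) at 100 ng/L EE2 than in solvent. The left panel uses all libraries and an unadjusted p below 0.05, and the right panel leaves out solvent replicate 1 and uses an adjusted p below 0.05. In both panels lower IDs outnumber higher ones below 10 CPM, and higher IDs outnumber lower ones from 100 CPM upwards.

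The share of all counts that each level took was also compared over libraries. These tests were added after the fold changes by level had been seen and use the same counts, so they are no independent support for them. IDs below 1 CPM took 0.130%, 0.128%, 0.128%, 0.135% and 0.122% of all counts in the 100 ng/L libraries, and 0.137%, 0.143%, 0.154%, 0.173% and 0.138% in the solvent libraries. The groups did not overlap, and solvent replicate 1 was the solvent library nearest to the exposed ones. The ratio of geometric means was 0.867 (exact two-sided permutation test over 252 relabellings, p = 0.00794, n = 5 per group, adjusted over 5 levels 0.0198). IDs at 1 to 10 CPM took 3.16%, 3.18%, 3.16%, 3.18% and 3.06% at 100 ng/L, and 3.37%, 3.42%, 3.50%, 3.58% and 3.22% in solvent. Again the groups did not overlap, and the ratio was 0.922 (p = 0.00794 in the same exact permutation test, adjusted 0.0198). This p is the smallest that 252 relabellings can give.

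At the 3 higher levels the shares of the groups overlapped. The ratios were 0.976 at 10 to 100 CPM, 1.002 at 100 to 1000 CPM and 1.04 at 1000 CPM and above (p = 0.421, 0.865 and 0.437 in exact permutation tests). At 1000 CPM and above the exposed libraries had between 32.3% and 35.1% of counts, solvent replicate 1 had 28.7% and the other solvent libraries had between 31.7% and 35.4%. Without solvent replicate 1 the ratio at that level was 1.004 (exact permutation test, p = 0.897). Without solvent replicate 1 the ratios at the 2 lowest levels were 0.849 and 0.918 (exact permutation tests, p = 0.00794 each, n = 5 and 4, adjusted 0.0198). Paired by replicate number, both gave an exact sign-flip p = 0.0625, the smallest that 5 pairs allow. Below 1 CPM the deepest 100 ng/L library, replicate 3, had 0.128% of its counts, and the shallowest, replicate 1, had 0.130%. The shallowest solvent library, replicate 1, had 0.137%, but it stood apart from its group. Solvent replicate 2, the next in depth (38841310 counts), had 0.143%. The deeper solvent replicates 3, 4 and 5 had 0.154%, 0.173% and 0.138%. The part of depth in these shares was not tested. An ID could enter the test through 1 group alone. Below 1 CPM 395 IDs reached the filter's limit of 0.239 CPM in all solvent libraries and not in all 100 ng/L libraries, and 245 did the reverse, and the part of this filter in the low-level ratios was not tested.

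Leaving out solvent replicate 1 changed both the number of calls and the balance of rises and falls. Over the remaining 14 libraries 453 IDs rose (2.04% of 22194 tested) and 538 fell (2.42%). The 991 IDs, 4.47% of those tested, held all 21 rises and both falls called with all libraries. The log2 fold change of scaf140.3 was then 11.13, that of scaf62.127 8.15, that of scaf10.101 -1.25 and that of scaf17.139 -1.36, with edgeR adjusted p-values of 6.77e-05, 4.22e-04, 0.00933 and 4.22e-04. With all libraries in the fit all 453 of the rises had a positive fold change. Of the 538 falls, 536 had a negative one, and the other 2 were not tested there. Both fits share 9 of the 10 libraries compared, so a like sign in both is no independent support. Of these IDs, 134 of the rises and 417 of the falls had an unadjusted edgeR p below 0.05 with all libraries, where 2.49% and 5.44% of all tested IDs did. At an unadjusted edgeR p below 0.05, 2684 IDs (12.1%) were higher and 2781 (12.5%) were lower without solvent replicate 1. The groups did not overlap for 356 of the 453 rises and 425 of the 538 falls, where 4.35% of all tested IDs lay above and 4.23% below all 4 solvent libraries. With solvent replicate 1 back in, they did not overlap for 35 and 30 of them. The 9 shared libraries chose these IDs, so neither these tallies nor the unadjusted p-values of these IDs are independent support. Most calls lay just under the threshold, 959 of the 991 having an adjusted p between 0.01 and 0.05.

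Rises and falls without solvent replicate 1 differed in size. The median rise was 1.38-fold, and 323 of 453 rises were under 1.5-fold, 98 were between 1.5- and 2-fold and 32 were 2-fold or more. The median fall was 1.67-fold, and 141 of 538 falls were under 1.5-fold, 273 were between 1.5- and 2-fold and 124 were 2-fold or more. The same IDs had a median rise of 1.21-fold and a median fall of 1.48-fold with all libraries. The median SE was 0.11 for rises and 0.17 for falls without solvent replicate 1, and 0.15 and 0.23 with it. These medians describe IDs picked by the same contrast.

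Rises and falls also differed in abundance. Rises had a median level of 44.0 CPM and falls of 11.8 CPM, where all tested IDs had 12.2 CPM. Below 1 CPM 3 rose and 22 fell, of 2981 tested. At 1 to 10 CPM 41 rose and 216 fell, 0.577% and 3.04% of 7104. At 10 to 100 CPM 319 rose and 271 fell, 2.97% and 2.52% of 10737. At 100 to 1000 CPM 86 rose and 28 fell, 6.85% and 2.23% of 1255. At 1000 CPM and above 4 rose and 1 fell, of 117. The share that rose thus grew with each level up to 1000 CPM, while the share that fell stayed between 2.23% and 3.04% from 1 to 1000 CPM.

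**Figure D3:**
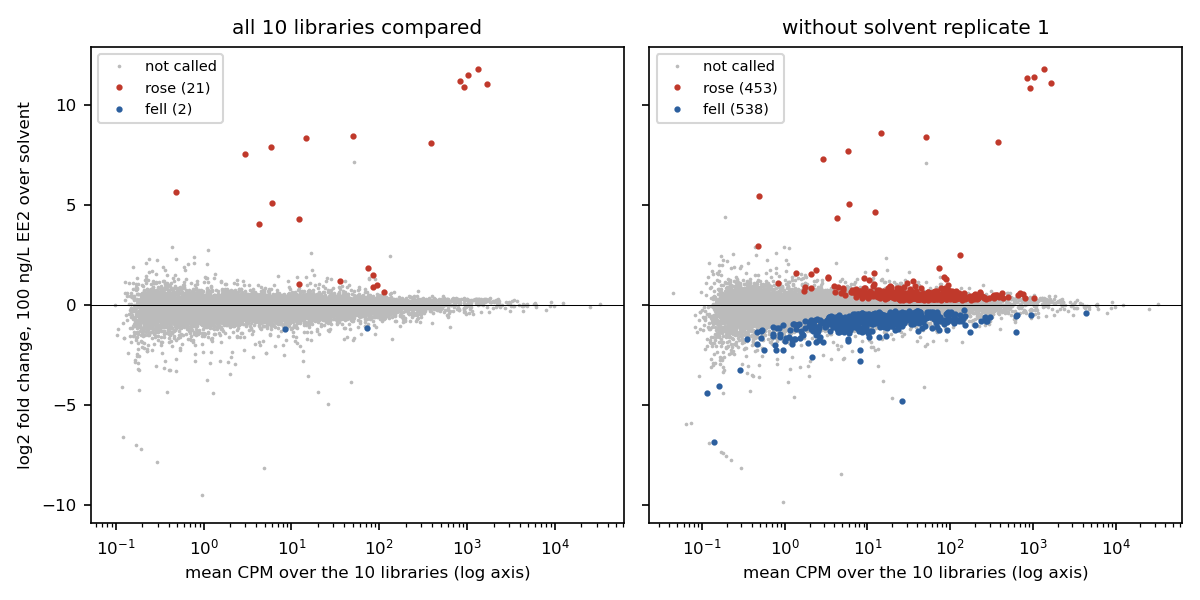
Each point is a tested ID, with its mean CPM over the 10 libraries on a log x axis and its log2 fold change, 100 ng/L EE2 over solvent, on the y axis. The left panel uses all libraries (21 rises, 2 falls) and the right panel leaves out solvent replicate 1 (453 rises, 538 falls). The large rises stay in place between panels. In the right panel the rises have a median of 1.38-fold and 44.0 CPM, and the falls of 1.67-fold and 11.8 CPM. The 1 fall at 1000 CPM and above lies at 4375 CPM.

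At every level the rise with the largest fold was already called with all libraries. The falls with the largest fold at each level were added calls, and are extremes rather than typical ones. Below 1 CPM it was a scaf4 ID with 0 CPM in each exposed library and between 0.108 and 0.417 CPM in the solvent libraries (edgeR adjusted p = 0.0369). That ID was not tested with all libraries. With no count in any exposed library, it passed the filter through solvent and 20 ng/L libraries alone, so its call is no independent support. At 10 to 100 CPM the largest fall was a scaf22 ID, with between 0.231 and 5.71 CPM at 100 ng/L and between 0.306 and 71.2 CPM in solvent (adjusted p = 0.0366). At 100 to 1000 CPM the largest fall was a scaf33 ID, with 225, 705, 422, 249 and 402 CPM at 100 ng/L, and 203, 1068, 1166, 868 and 1036 CPM in solvent (2.57-fold, edgeR adjusted p = 0.0310). In this ID solvent replicate 1 was below all exposed libraries, and with all libraries it was not called (edgeR adjusted p = 0.601). At 1000 CPM and above the 1 fall was a scaf3 ID, with 3811, 4297, 4029, 3681 and 3894 CPM at 100 ng/L, and 3060, 4509, 5481, 5536 and 5450 CPM in solvent (1.32-fold, adjusted p = 0.0366, or 0.626 with all libraries). At 1 to 10 CPM the largest fall was a scaf25 ID, whose solvent replicates 4 and 5 had 30.5 and 31.7 CPM, while the other 3 solvent libraries had between 1.59 and 3.13 CPM and the exposed libraries between 1.45 and 3.258 CPM. That fall rested on 2 solvent libraries.

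Solvent replicate 1 was not in the fit that chose the 991 IDs. It was left out with earlier results of these data known, and with it in, only 21 of the rises and 2 of the falls were called. An ID where it lies toward the exposed libraries is one whose call it can end, so the tallies below are no independent test. For 426 of the 453 rises solvent replicate 1 lay above all 4 other solvent libraries, and for 396 it lay at or above the mean of the 100 ng/L libraries. For 513 of the 538 falls it lay below all 4 other solvent libraries, and for 450 it lay at or below the exposed mean. Of all 22194 tested IDs it lay above the other 4 solvent libraries for 6854 and below them for 7262. The tallies against the exposed libraries were not made over all tested IDs. It lay beyond all 5 exposed libraries for 306 of the rises and 314 of the falls. The pattern was found at each level with 20 or more such IDs. It was weakest for the falls below 1 CPM, where 12 of 22 were at or past the exposed mean. The share at or past the exposed mean ran from 73.2% to 91.9% for rises at 1 to 1000 CPM, and from 54.5% to 92.9% for falls below 1000 CPM. Set against the mean of solvent replicates 2 to 5, its median log2 difference was 0.69 over the rises and -1.05 over the falls.

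The exposed libraries differed among themselves on the same IDs. The median log2 difference from solvent replicates 2 to 5 over the 453 rises was 0.58, 0.22, 0.38, 0.57 and 0.44 for replicates 1 to 5 at 100 ng/L. Over the 538 falls it was -0.84, -0.41, -0.65, -0.81 and -0.72. Replicate 2 lay nearest to solvent on both lists. These libraries helped to choose the IDs, so their distance from solvent is no test. The 20 ng/L libraries ran from 0.07 to 0.22 over the rises and from -0.35 to -0.02 over the falls. The solvent libraries they are set against are those that chose the IDs.

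**Figure D4:**
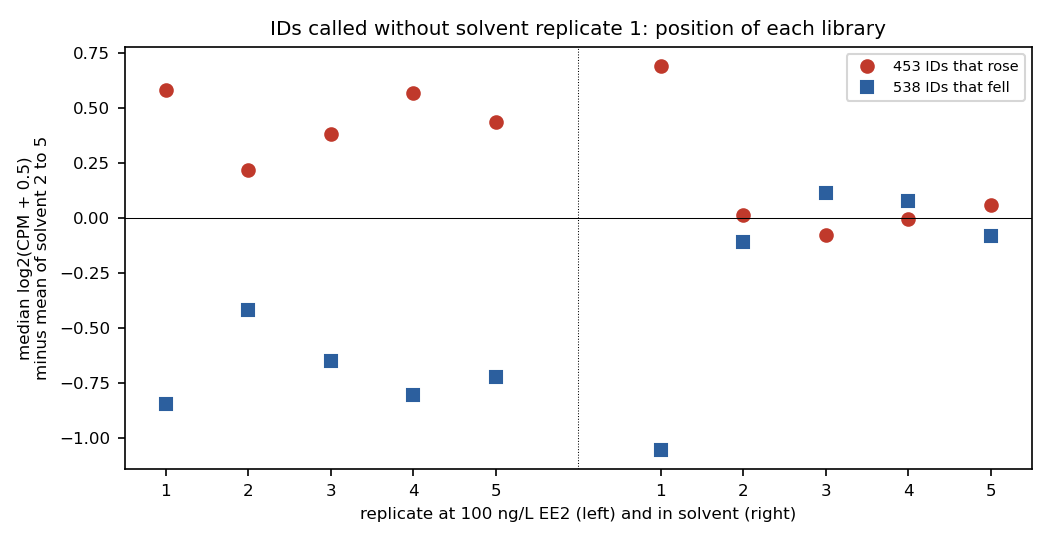
For each library, the median over the 453 IDs that rose (red circles) and the 538 that fell (blue squares) without solvent replicate 1 of log2(CPM + 0.5), less the mean of solvent replicates 2 to 5. Replicates at 100 ng/L are on the left and solvent replicates on the right. Solvent replicate 1 lies at 0.69 and -1.05, farther from the other solvent libraries than any exposed library.

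On the strongest rises solvent replicate 1 lay far below the exposed libraries. These rises were called with it in the fit, and all 21 had each exposed library above each solvent library. Its place there is therefore no test. Solvent replicate 1 had 1.74 CPM of scaf140.3, inside the range of 0.486 to 2.45 CPM of the other solvent libraries. It had 2.76 CPM of scaf62.127, where the others had between 1.64 and 3.27 CPM. It had 0.208 CPM of the most abundant scaf36 ID, where the exposed libraries had between 82.7 and 113 CPM. Of the scaf381 ID it had 2.24 CPM, above the 0.678 to 1.11 CPM of the other solvent libraries.

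The large number of calls without solvent replicate 1 was not seen when the 20 ng/L libraries were left out of the fit. With only the 9 remaining libraries of the 2 groups, 21 IDs rose and 20 fell, all among the 991 (edgeR adjusted p below 0.05). The fold changes of the 991 hardly differed in that fit, with a median log2 value of 0.46 for rises and -0.74 for falls in both fits. The median SE was 0.11 and 0.17 in both. All 453 rises and 534 of the 538 falls had an unadjusted edgeR p below 0.05 over the 9 libraries. At that limit 10.6% of tested IDs were higher and 11.3% lower. The same 9 libraries made up the contrast that chose the IDs, so this likeness is no independent support. With the replicate number as a block in the 14-library fit, 1114 IDs rose and 1200 fell, among them 445 of the 453 and 502 of the 538. Number 1 had no solvent library in that fit, and deviations from group means of its 100 and 20 ng/L libraries correlated by 0.052. At 1 to 10 CPM the blocked fit had 134 rises and 473 falls, and at 100 to 1000 CPM 205 rises and 72 falls. Leaving out 1 more library of the 2 groups gave between 40 calls (without solvent replicate 4) and 2556 (without replicate 2 at 100 ng/L). The count was 42 without solvent replicate 3, 70 without replicate 4 at 100 ng/L, 76 without replicate 1, 157 without replicate 3, 184 without replicate 5, 490 without solvent replicate 2 and 1213 without solvent replicate 5.

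By prefix, the rises called without solvent replicate 1 came from 117 and the falls from 138 of the 486 tested prefixes. Of these IDs, 14 rises (3.09%) and 32 falls (5.95%) had a directly adjacent ID of the same prefix called in the same direction. Of all tested IDs 2.04% rose and 2.42% fell, and an ID can have a neighbour on either side. The share to be met without clustering was not computed, so none can be read from these counts. The prefix with the most falls, scaf3, had 28 falls and 24 rises among 949 tested IDs (2.95% and 2.53%). The scaf21 prefix had 18 falls and 6 rises among 393 (4.58% and 1.53%), where 2.42% of all tested IDs fell and 2.04% rose. Of the 26 tested scaf140 IDs, 7 rose and 2 fell, the 7 being the 5 called with all libraries and 2 more. Of the 20 tested scaf178 IDs 3 rose, and of the 63 tested scaf123 IDs 6 fell. No test of clustering was made.

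In the authors' deposited table for this comparison, 488 of 15569 listed IDs were higher and 655 lower at an adjusted p below 0.05. That table comes from the same series, so an overlap with it is no independent support. Whether solvent replicate 1 entered it was not established here. The 453 rises found here without solvent replicate 1 shared 435 with the authors' deposited table, which is 96.0% of the 453 and 89.1% of the 488. The 538 falls shared 454 with the authors' deposited table, 84.4% of the 538 and 69.3% of the 655. The authors' deposited table lists no ID below 1 CPM. It lists 439 of the 453 rises and 454 of the 538 falls, so every listed fall was also called there. By level the authors' deposited table had 36 higher and 215 lower IDs at 1 to 10 CPM, 351 and 399 at 10 to 100 CPM, 97 and 40 at 100 to 1000 CPM, and 4 and 1 at 1000 CPM and above. Of the calls made with all libraries, 20 of the 21 rises and both falls were called in the authors' deposited table, and the other rise is not listed in it.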

How the data were processed

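Per the labels' protocols, poly(A) RNA was selected from 250 ng of total RNA and made into strand-marking libraries. The submitters' processing notes name Trimmomatic 0.38, StringTie 1.3.4d and edgeR 3.26.5. What aligned the reads, to which build and annotation, and whether the strand was used in counting is not given in the sources used here, so reads of overlapping and antisense genes may be mixed.

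Raw counts for every ID and library were deposited by the authors in 1 table and used unchanged. They also deposited a table of their own comparison of 100 ng/L EE2 with solvent. Per the file headers that table gives each ID a fold, its log2 value, the log2 of its mean CPM, an F score, a p-value and an adjusted p-value. It was used only for comparison. Of 26150 IDs, 0 matched the 64593 genes of the reference table, and 0 of 62 listed gene symbols matched an ID, so no gene list was tested and no sequence is printed.

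The tests used edgeR 4.0.16 in R 4.3.3, with filterByExpr (minimum count 10, minimum total 15), TMM, and a robust quasi-likelihood fit of group means over all 15 libraries, with Benjamini-Hochberg adjusted p below 0.05 as the threshold. SEs are the log2 fold change divided by the square root of F. CPM values are TMM-normalised. IDs are named by rule: the called rise with the highest mean CPM at 100 ng/L, the same among other prefixes, and the called falls. Other IDs are given by prefix, and those picked as the strongest of a level were chosen after their values were seen. Levels are bounded at 1, 10, 100 and 1000 CPM. Share tests over levels were added after seeing the data. The members, levels and lists were chosen with earlier results of these data known.

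Labels share replicate numbers 1 to 5. Deviations from group means correlated by 0.247 to 0.488 between same-numbered 100 ng/L and solvent libraries, all above the limit of 0.1. Blocked fits are therefore printed where they change a call. The best match lay at the same number for numbers 1, 2, 4 and 5, and not for number 3. Unless limited to the libraries compared, these fits also block the 20 ng/L libraries, whose pairing was weaker for some numbers. With 100 ng/L the correlation was 0.052 for number 1 and 0.073 for number 5, both below the limit. For numbers 2, 3 and 4 it was 0.246, 0.275 and 0.503. With solvent it was 0.072 for number 1, also below the limit, and from 0.231 to 0.671 for the others. Pairing by number comes from the data, not the labels. Alternatives were limma-voom (limma 3.58.1), DESeq2 1.42.0, library size only, RLE factors, other filters, only the libraries compared, the block, non-robust estimation, other thresholds and each library left out. Figures used Python 3.11.15 and matplotlib 3.10.9.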

Additional observations from a re-analysis of the deposited data

Results flagged for a closer look

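Among 52 groups of 5 libraries examined, 7 had a library far from the other 4. By chance about 1 in 20 independent groups would have one, and these groups are not independent.

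Replicate 2 at 100 ng/L had 9.34 CPM of the least abundant scaf36 ID, where the other 4 libraries had between 4.52 and 5.30. For scaf17.139 replicate 5 at 100 ng/L stood at 4.25 CPM and the other 4 between 5.21 and 5.58. Solvent replicate 4 had 0.198 CPM of the first scaf178 ID, and solvent replicate 3 had 0.0720 CPM of the second, where the other 4 solvent libraries had 0. For the scaf381 ID solvent replicate 1 stood at 2.24 CPM and the other 4 between 0.678 and 1.11.

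On the IDs called without it, the medians of solvent replicate 1 lay far from those of the other 4. Its median log2 difference from the other solvent libraries was 0.69 over the 453 rises, where the others had between -0.07 and 0.06, and -1.05 over the 538 falls, where the others had between -0.11 and 0.11. Those 4 libraries define the zero of this scale and helped to choose the IDs, so their closeness to 0 is no measure of the spread between solvent libraries.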

How the results depend on the processing

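With all libraries the number of rises varied less over the settings than the number of falls. The 21 rises and 2 falls (23 calls) became 34 and 24 (58) by DESeq2. The falls numbered 1 by limma-voom, 4 with library size only, 0 with only the 2 groups compared (815 at an unadjusted edgeR p below 0.05), 1 with the replicate block (24 rises, a different fall), 1 with the block and only the 2 groups, 0 at an adjusted p below 0.01 and 6 below 0.1. Leaving out 1 library gave 18 to 991 calls, 18 to 453 rises and 0 to 538 falls. Each highest value was without solvent replicate 1, and the next were 25, 23 and 6.

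Without solvent replicate 1 the 991 calls (453 rises, 538 falls) became 2701 (1281 and 1420) by DESeq2, 530 (185 and 345) with library size only, 41 (21 and 20) with only the 2 groups compared, 2314 (1114 and 1200) with the replicate block, 30 (19 and 11) with the block and only the 2 groups, 32 (22 and 10) at an adjusted p below 0.01 and 2753 (1321 and 1432) below 0.1. Leaving out 1 more library gave 40 to 2556 calls, 25 to 1258 rises and 15 to 1298 falls. Without the libraries numbered 1 of all groups, an alternative chosen after seeing the data, there were 40 (24 and 16). The cause of these differences was not tested.

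Over 20 alternatives the median log2 fold change stayed below 0 under 10 CPM and above 0 from 100 CPM upwards. At 10 to 100 CPM it was -0.018 with library size only. Shares of counts (log2, 100 ng/L over solvent) ran from -0.24 to -0.15 below 1 CPM and from -0.14 to -0.10 at 1 to 10 CPM with 1 library left out, with an unadjusted exact permutation p of at most 0.0238 and 0.0159. Paired by number the values of -0.21 and -0.12 had p = 0.0625, the smallest 5 pairs allow in an exact sign-flip test. At 100 to 1000 CPM the share ran from -0.0046 to 0.016 and changed sign (-0.0046, -0.0022, -0.0014 and -0.0034) without replicate 1 at 100 ng/L or solvent replicate 2, 3 or 5. At 10 to 100 CPM it ran from -0.06 to -0.01, and at 1000 CPM and above from 0.01 to 0.08. The replicate block changed no call of the 23 other than those named. Of the 5 levels, IDs below 1 CPM had the largest median SE.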

Other observations

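Large fitted falls existed but were not called by edgeR. With all libraries, 23 IDs had a fitted fold of 8 or more downwards. At an adjusted p below 0.05 edgeR and limma-voom called 0 of them and DESeq2 called 1. An unadjusted edgeR p below 0.05 was found for 19, where 5.44% of all tested IDs were lower at that limit. Of the 15 IDs with a fitted fold of 8 or more upwards, edgeR called 14. Of the 23, 3 had each 100 ng/L library below each solvent library, where 0.378% of all tested IDs did. Below 1 CPM lay 15 of the 23, and 2764 of all 21976 tested IDs. The 23 were picked by their fitted fold, so these tallies are no independent support. A scaf22 ID among them, chosen after its values were seen, was abundant in some solvent libraries and nearly absent from another. It had 0.697, 5.71, 0.231, 0.673 and 0.784 CPM at 100 ng/L, and 68.5, 71.2, 0.306, 64.6 and 47.7 CPM in solvent, where replicate 3 was as low as the exposed libraries. At 20 ng/L it had between 0.446 and 0.722 CPM. Its edgeR adjusted p was 0.134 with all libraries and 0.0366 without solvent replicate 1.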
